A study of Mus musculus with 20 samples.

Results

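Retinas of 10-month-old mice without the gene Nrl were compared with retinas of 6-month-old mice of the same kind, the last step of an ageing series measured on Affymetrix exon arrays. The comparison holds 8 of the 20 arrays of the series, the 4 labelled 10 months and the 4 labelled 6 months, chosen by their labels alone. Every mouse was Nrl-/- on the C57Bl/6J strain and untreated as far as the labels say, and the retina pair of a single mouse made up a sample, so n = 4 mice per age. The other 12 arrays, 4 each at 1, 2 and 4 months, entered the estimate of the spread and are described beside the late step. No wild-type retina was analysed here, so what belongs to the loss of Nrl and what belongs to ordinary ageing cannot be told apart. The labels give neither the sex of the mice nor an hour of collection, a handling batch or a scan date, so age and anything that went with it in handling cannot be told apart either. The series title speaks of cones that persist after an early, passing degeneration, and the late step asks what still changes after that.

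Nrl is the transcription factor that commits photoreceptor precursors to the rod fate. Without it the retina makes cone-like photoreceptors in place of rods, most of them expressing the short-wavelength cone opsin, and their outer segments are short and disordered. Cones turn light into a change of membrane potential through an opsin, the G protein transducin, a phosphodiesterase and a cyclic-nucleotide-gated channel, and they renew outer segment proteins through the endoplasmic reticulum (ER) and the connecting cilium. Retinal neurons and glia also carry a circadian clock of their own and respond to activity and stress with immediate early genes, transcription factors whose messages appear within minutes and decay again.

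The arrays gave a log2 level for 15781 genes, and 11836 remained after the dimmest 25% by mean level were left out. Levels are log2 RMA intensities, so a difference of 1 is a doubling, and they are not comparable between genes. The labelled tissue was checked against its markers. Opn1sw encodes the short-wavelength opsin of cones and measured 13.69 ± 0.06 (SD, n = 4) at 6 months and 13.58 ± 0.07 at 10 months, near the top of the scale, whose highest value was 14.3. Nrl measured 6.09 ± 0.13 and 6.14 ± 0.07, little above the limit for testing of 5.61, but its probe sets may lie outside the deletion, so its level is no check of the genotype. Nr2e3, the rod gene that Nrl switches on, was among the dim genes. The mean correlation of each of the 8 arrays with the other arrays of the series was between 0.970 and 0.981, and none of them stood apart as a whole.

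Some gene groups nevertheless separated arrays within the 10-month group, and their values stand here before the results. All 4 arrays of 6 months had high levels of the Y-linked genes Eif2s3y and Kdm5d. Eif2s3y measured 8.08, 8.17, 7.71 and 7.91 at 6 months and 7.43, 3.80, 4.35 and 8.09 at 10 months. Kdm5d measured 7.51, 7.50, 7.67 and 7.38 at 6 months and 7.36, 4.45, 4.49 and 7.36 at 10 months. Replicates 2 and 3 of 10 months were therefore low in both genes and replicates 1 and 4 were not, and the falls called for Eif2s3y (-2.05 ± 0.62 SE, adjusted p = 0.0253) and Kdm5d (-1.60 ± 0.49, adjusted p = 0.0247), the largest called falls by size, were both lost without those 2 arrays. Their X-linked partners were also higher in replicates 2 and 3 than in replicates 1 and 4. Eif2s3x measured 10.65, 11.14, 11.05 and 10.73 in the 10-month arrays against 10.46 to 10.69 at 6 months. Kdm5c measured 9.50, 10.07, 10.02 and 9.66 against 9.97 to 10.06, so its replicates 1 and 4 were below the 6-month arrays and its mean difference was -0.19 (adjusted p = 0.211). Among the other ages, the mean of Eif2s3y and Kdm5d was 4.00 to 4.28 in the 4 arrays of 2 months. It was 7.93 to 8.28 at 1 month and 7.33 to 7.63 at 4 months. In courses over the ages, the age of 2 months and a low Y-linked level therefore cannot be told apart. The labels name no sex.

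Genes of the retinal pigment epithelium, the pigmented layer behind the photoreceptors that recycles visual pigment, were uneven in the same group. The mean of Rpe65, Rgr, Ttr, Rdh5 and Lrat was 8.15, 7.59, 7.48 and 7.71 in the 6-month arrays and 8.52, 7.32, 8.48 and 9.15 in the 10-month arrays. Replicates 1, 3 and 4 of 10 months lay above all 6-month arrays and replicate 2 lay below them. Over the whole list of 26 tested pigment epithelium genes, the mean level ran from 7.63 to 7.93 at 6 months and from 7.55 to 8.48 at 10 months, and replicate 2 was the lowest 10-month array for 23 of the 26. The list had a median change of 0.35, against 0.03 for all genes tested, yet 3 members were called higher (Lrat, Timp3 and Rrh) and 1 lower (Sulf1). Those are 11.5% and 3.85%, against 8.56% and 11.7% of all genes tested. Without replicate 2 of 10 months, 18 members were called higher. Dct, Tyrp1 and Pmel, which make melanin in pigment cells, averaged 6.65, 8.14, 6.31 and 6.47 at 6 months and 9.48, 6.29, 7.73 and 7.80 at 10 months.

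Several genes outside that list had the same order over the 10-month arrays. Penk, the precursor of the enkephalins, measured 7.88, 9.55, 8.69 and 7.93 at 6 months and 10.99, 7.96, 10.95 and 11.07 at 10 months (1.73 ± 0.61, adjusted p = 0.0535). Gpx3, a secreted glutathione peroxidase, measured 10.64, 7.36, 9.90 and 10.33 at 10 months against 6.95 to 9.67 at 6 months. Ptgds, the prostaglandin D synthase of meninges and eye, measured 10.05, 8.17, 9.51 and 9.87 against 8.40 to 9.07. For all of these, replicates 1, 3 and 4 of 10 months were above every 6-month array and replicate 2 was not. Slc6a13, a GABA transporter (7.73, 6.64, 7.74 and 7.84), and Sod3, the extracellular superoxide dismutase (7.53, 6.26, 7.32 and 7.53), had that order too and were called, at adjusted p = 0.0168 and 0.0260, but both calls were lost with the pigment epithelium or the pigment cell level in the fit, and in 9 and 12 of the 24 alternatives in all. With the pigment epithelium level in the fit 1512 genes were called, and with the pigment cell level 1770, against 2400 without. Beyond that, the part of these tissues in the results was not tested.

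**Figure D1:**
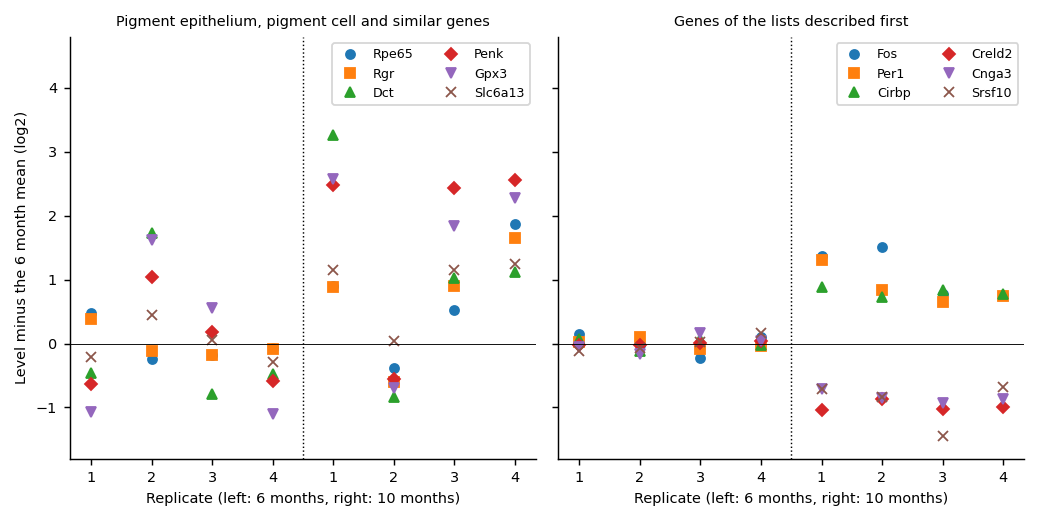
Level of 12 genes in each 6-month and 10-month array, as the log2 difference from the gene's own 6-month mean; the left panel holds Rpe65, Rgr, Dct, Penk, Gpx3 and Slc6a13, the right panel Fos, Per1, Cirbp, Creld2, Cnga3 and Srsf10. On the left, replicate 2 of 10 months lies within or below the range of the 6-month arrays while the other 10-month arrays lie above it, except for Dct, whose replicate 2 of 6 months lies above replicates 3 and 4 of 10 months; on the right, all 4 arrays of 10 months lie on the same side of the 6-month arrays.

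Between 6 and 10 months, 2400 of the 11836 genes were called at an adjusted p under 0.05, which is 20.3%, with 1013 higher (8.56%) and 1387 lower (11.7%). Most changes were small. The median size was 0.29 among the genes called higher and 0.32 among those called lower, against 0.13 for all genes tested. At least 1.5-fold were 65 of the higher and 120 of the lower genes, and at least 2-fold 8 and 5. The arrays of the 2 ages did not overlap for 2005 of the called genes (16.9% of those tested) and for 2692 of all tested genes (22.7%). A fit that included the Y-linked level called 1715 genes, and without the 2 arrays low in Y-linked genes 1835.

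Among called genes whose arrays of the 2 ages did not overlap, and apart from predicted genes, the 15 largest rises were Cdkn1a, Mt2, Egr1, Fos, Nr4a1, Egr3, Mt1, Npas4, Nr4a3, Lcn2, Klf10, Adamts1, Per1, Id2 and Sik1, from 1.57 down to 0.84. Most of them belong to the immediate early, clock and stress groups described next. Klf10 (0.92) is a zinc finger factor induced by TGF-beta, Adamts1 (0.90) a secreted metalloprotease and Sik1 (0.84) a kinase induced by cyclic AMP. The 15 largest falls, under the same limits, which leave out Eif2s3y, ran from -1.60 for Kdm5d to -0.84 for Srsf5. Next to genes of the ER, splicing and photoreceptor groups they held Cep97, which caps centrioles and restrains cilium formation, Senp8, a protease for the ubiquitin-like protein NEDD8, Tfb1m, a methyltransferase of mitochondrial ribosomal RNA, Pot1a, a telomere-binding protein, Ciao1, which delivers iron-sulfur clusters to cytosolic proteins, Bmp15, a growth factor known from oocytes, and the zinc finger gene Zfp961. Ciao1 measured 9.18, 9.21, 9.28 and 9.25 at 6 months and 8.37, 8.50, 8.40 and 8.26 at 10 months (-0.85 ± 0.06, adjusted p = 1.55e-07), with all 7 probe sets lower. Cep97 fell by 1.06 with 13 of its 15 probe sets lower, but its brightest probe set gave 0.14. Rbm12b1 and Rbm12b2, which fell by 1.48 and 0.92, are near-identical neighbours with 2 probe sets each, so which of them changed is uncertain.

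**Figure D2:**
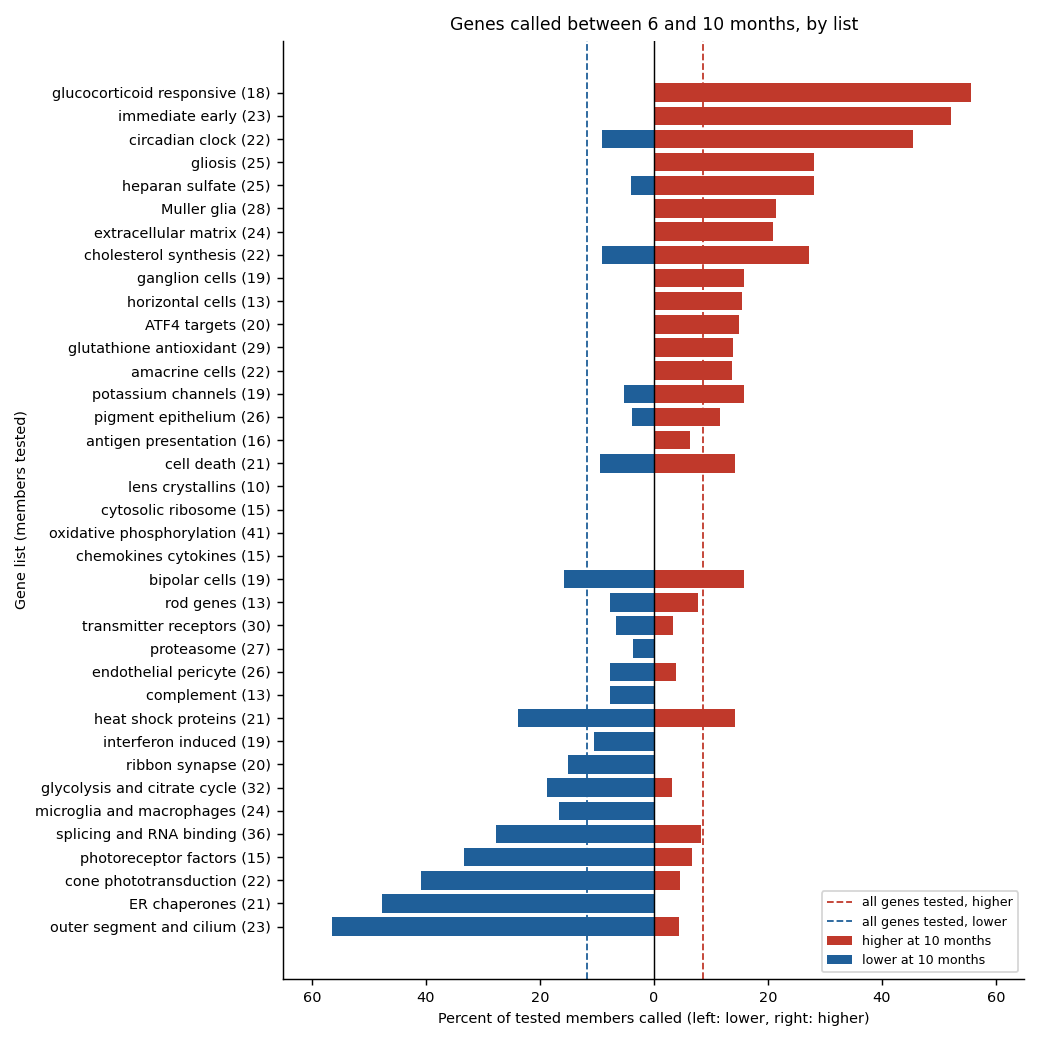
Percent of the tested members of each gene list called higher (right, red) or lower (left, blue) at 10 months, for the lists with at least 10 tested members, whose number stands in brackets; dashed lines mark the percent of all genes tested, 8.56 higher and 11.7 lower. Glucocorticoid responsive, immediate early and clock genes reach farthest to the right, and outer segment and cilium, ER chaperone and cone phototransduction genes farthest to the left. The lists were chosen with earlier results of these data known, so the shares are descriptive.

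The gene lists, here and below, were chosen with earlier results of these data known. Their shares describe the listed members and are no test of a class of genes. Immediate early genes were higher at 10 months. Of 23 tested members 12 rose and none fell, 52.2% against 8.56% of all genes, with a median change of 0.41 against 0.03 (6 rose with the brightest probe set alone). Fos, a subunit of the AP-1 transcription factor, measured 8.38, 8.21, 8.01 and 8.34 at 6 months and 9.61, 9.75, 9.01 and 9.00 at 10 months. Egr1, a zinc finger factor induced by activity and growth signals, measured 8.19, 8.10, 7.94 and 8.24 at 6 months and 9.29, 9.54, 9.19 and 8.96 at 10 months. Nr4a1, an orphan nuclear receptor, measured 10.01, 10.14, 9.72 and 10.08 and then 11.52, 11.12, 10.58 and 11.02. In each of these genes all 10-month arrays lay above all 6-month arrays, the replicate low in pigment epithelium genes included. The changes were 1.11 ± 0.14 for Fos (2.15-fold, adjusted p = 2.8e-05), 1.13 ± 0.13 for Egr1 (adjusted p = 8.1e-06) and 1.07 ± 0.14 for Nr4a1 (adjusted p = 3.27e-05).

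The rest of the group varied more between mice. Npas4, which neurons induce on calcium entry, measured 6.59, 6.45, 7.68 and 7.54 at 10 months against 5.89 to 6.21 at 6 months, highest in replicates 3 and 4. Nr4a3 had the opposite order, with 8.19, 7.40, 6.55 and 6.48 against 6.15 to 6.21, highest in replicates 1 and 2. Junb (0.68), Fosl2 (0.67) and Zfp36 (0.69), a protein that destabilises cytokine messages, were also highest in replicates 1 and 2. Egr3 rose by 1.00, Jund by 0.37 and Dusp6, a phosphatase of the ERK kinases, by 0.31. Not called were Arc (0.58, adjusted p = 0.0513), Egr2 (0.41, adjusted p = 0.0710), Dusp1, Klf4, Ier2, Btg2, Atf3, Ier5, Klf2, Nr4a2 (-0.12) and Jun (-0.18). The order of the 10-month mice differed between members although the group as a whole was higher in each of them: the mean of the 23 genes ran from 7.74 to 7.84 in the 6-month arrays and from 8.13 to 8.53 in the 10-month arrays.

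Egr1 averaged 8.85 at 1 month, 7.99 at 2, 8.30 at 4, 8.12 at 6 and 9.24 at 10 months, and Nr4a1 averaged 10.55, 10.02, 10.09, 9.99 and 11.06 at the same ages. Both were higher at 1 month than at 2 to 6 months, and highest at 10 months. Of the 23 members, 6 fell and none rose from 1 to 4 months, a comparison that shares no array with the late step.

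Clock genes rose in part. Of 22 tested members, with Per1 in both lists, 10 rose and 2 fell (45.5% and 9.09%), with a median change of 0.18, and 6 rose with the brightest probe set. Per1, a repressor of the clock that is also induced acutely, measured 9.44, 9.51, 9.32 and 9.37 at 6 months and 10.72, 10.24, 10.07 and 10.15 at 10 months (0.89 ± 0.11, 1.85-fold, adjusted p = 1.29e-05), with all 29 probe sets higher. Per2, its close relative, measured 8.04, 7.95, 7.76 and 7.94 and then 8.57, 8.16, 8.55 and 8.40 (0.49 ± 0.08). Cry1, the partner of the Per proteins, measured 9.19, 9.12, 9.10 and 9.21 and then 9.45, 9.54, 9.59 and 9.59 (0.39 ± 0.06). The arrays of the ages did not overlap for any of these. Arntl, which encodes the activator BMAL1, rose by 0.36 ± 0.08, Bhlhe40 by 0.42 ± 0.06, Nfil3 by 0.39 ± 0.09, Usp2 by 0.38, Bhlhe41 by 0.36, Csnk1e by 0.32 and Noct by 0.30.

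Other clock genes went down or were not called. Per3 fell from 9.55, 9.52, 9.48 and 9.33 to 9.31, 9.14, 9.08 and 9.14 (-0.30 ± 0.06, adjusted p = 0.00114), and the kinase gene Csnk1d fell by 0.14. Dbp (0.01), Nr1d1 (0.12), Nr1d2 (0.04) and Tef (0.08), clock genes with large daily swings in many tissues, were not called. Among the members, an activator (Arntl) and repressors (Per1, Per2 and Cry1) rose together.

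**Figure D3:**
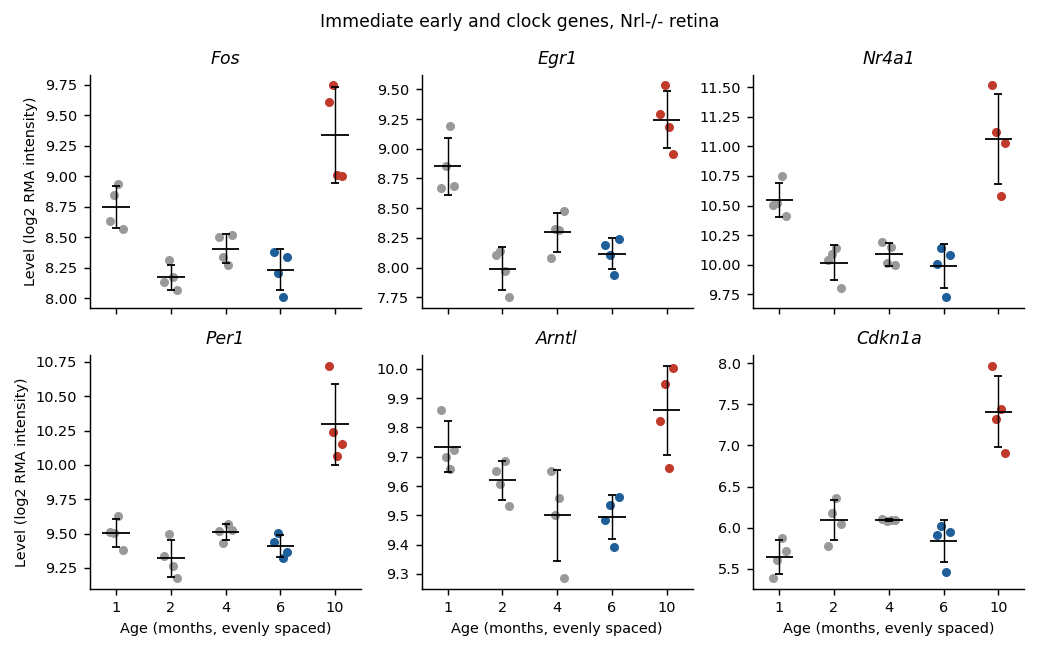
Log2 RMA level of Fos, Egr1, Nr4a1, Per1, Arntl and Cdkn1a in each mouse at 1, 2, 4, 6 (blue) and 10 months (red); ages are evenly spaced, horizontal lines are means and bars SD, n = 4, and each panel has its own axis. In all 6 panels the 10-month points lie above the 6-month points, and for Fos, Egr1 and Nr4a1 the 1-month mean lies between the means of 6 and 10 months.

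Genes that respond to glucocorticoids and metals were higher too. Of 18 tested members of the glucocorticoid responsive list, which was also chosen with earlier results known, 10 rose and none fell (55.6%). The median was 0.29, and 6 rose with the brightest probe set. Per1, Ddit4, Lcn2, Mt1 and Mt2 are shared with other lists. Cdkn1a, the cell cycle inhibitor p21 and the largest called rise, measured 5.92, 6.03, 5.46 and 5.95 at 6 months and 7.97, 7.32, 7.44 and 6.91 at 10 months (1.57 ± 0.17, 2.97-fold, adjusted p = 5.06e-06). Mt2 measured 9.16, 9.23, 9.35 and 9.21 and then 11.03, 10.70, 10.36 and 10.75 (1.47 ± 0.22, adjusted p = 0.000112). Mt1, its neighbour, measured 11.39, 11.31, 11.06 and 11.23 and then 12.41, 12.27, 12.06 and 12.20 (0.99 ± 0.10, adjusted p = 2.43e-06). All 3 genes were above the 6-month range in every 10-month mouse. Mt1 and Mt2 encode metallothioneins, small zinc- and copper-binding proteins, and had also risen from 1 to 4 months, by 0.71 and 1.53. Fkbp5, a chaperone that dampens the glucocorticoid receptor, rose by 0.44, Arrdc2 by 0.37, Ddit4 by 0.27, Nfkbia by 0.26 and Errfi1 by 0.15. Tsc22d3 (0.09), Sgk1 (0.24), Dusp1 (0.24) and the receptor gene Nr3c1 itself (0.01) were not called.

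The promoters of the metallothionein pair are shown because the genes moved together and are known to be switched on through metal response elements. The sequences are RefSeq's of GRCm38.p6, the 250 bases before the start site on the plus strand, with the letters TGCACNC or TGCGCNC on either strand in capitals. They lie at chr8:94178839-94179088 for Mt1 and chr8:94172368-94172617 for Mt2.
Mt1: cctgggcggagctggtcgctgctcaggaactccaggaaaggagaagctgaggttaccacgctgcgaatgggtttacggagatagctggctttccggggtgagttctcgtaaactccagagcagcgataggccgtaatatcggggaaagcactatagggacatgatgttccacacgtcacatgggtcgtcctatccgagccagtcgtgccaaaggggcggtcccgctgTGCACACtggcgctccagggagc
Mt2: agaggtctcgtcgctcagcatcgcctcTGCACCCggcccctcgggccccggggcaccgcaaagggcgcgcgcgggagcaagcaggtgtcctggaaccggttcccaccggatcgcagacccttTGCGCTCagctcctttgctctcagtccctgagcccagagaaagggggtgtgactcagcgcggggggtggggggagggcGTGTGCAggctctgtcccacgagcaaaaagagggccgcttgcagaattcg

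In the full window of 300 bases, which runs 50 bases past the start, the letters occurred 3 times for Mt1 and 4 times for Mt2. They are short and common: 35.2% of the windows of all tested genes hold them. The palindromic glucocorticoid response element was in none of the 13 windows of the glucocorticoid responsive genes that rose, and in 0.00816% of the windows of tested genes. The cyclic AMP response element TGACGTCA was in none of the 11 windows of the immediate early genes that rose (2.76% of windows of tested genes), and the E-box CACGTG was in 3 of the 13 windows of the clock genes that rose, those of Bhlhe41, Cry1 and Per1 (23.1% against 9.60%). These windows are near the start site only.

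Glial stress genes overlapped with that group. In the gliosis list 7 of 25 tested members rose and none fell (28%, median 0.12; 3 with the brightest probe set and 4 with the Y-linked level as covariate). The largest were Mt2, Mt1 and Lcn2, which encodes lipocalin 2, an iron carrier secreted by reactive glia (7.11, 6.91, 7.11 and 6.57 at 6 months, 7.75, 7.61, 8.05 and 8.07 at 10 months, 0.95 ± 0.16, adjusted p = 0.000357). Cebpb (0.39), Tnfrsf12a (0.45), Fgf1 (0.21) and Cd44 (0.20) were the others. Gfap, the filament protein used as the standard mark of reactive Muller glia, was not called: it measured 8.27, 8.21, 8.44 and 8.08 at 6 months and 8.01, 8.30, 7.92 and 8.12 at 10 months (-0.16 ± 0.13, adjusted p = 0.398). Its relatives in that response, Vim (0.09), Serpina3n (-0.34), Stat3 (0.12) and Socs3 (0.21), were not called either.

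Of 28 tested Muller glia genes 6 rose and none fell (21.4%, median 0.08): Slc6a13, Id2, Spc25, Hes1, Car14 and Sox9. The count was 3 without replicate 1 or replicate 3 of 10 months, without replicate 4 of 6 months, or with the pigment cell level as a covariate. Id2, an inhibitor of bHLH factors, measured 7.12, 7.24, 7.20 and 7.45 and then 8.38, 7.91, 7.75 and 8.36 (0.85 ± 0.16, adjusted p = 0.00104). Hes1, a Notch target, rose by 0.30 ± 0.07, and all its 10-month arrays lay above the 6-month arrays. The defining Muller markers Glul (0.03), Slc1a3 (0.04), Aqp4 (0.06), Rlbp1 (0.16) and Apoe were not called.

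ER chaperone genes were lower at 10 months. These proteins fold and check secreted and membrane proteins, and their genes are raised together by the unfolded protein response. Of 21 tested members 10 fell and none rose (47.6% against 11.7%), with a median change of -0.23. Leaving out single arrays gave 9 to 11 falls. With the brightest probe set or with the Y-linked level as covariate 7 fell, and without the 2 arrays low in Y-linked genes 8. Creld2, a disulfide isomerase induced by ER stress, measured 8.57, 8.58, 8.61 and 8.63 at 6 months and 7.56, 7.73, 7.57 and 7.60 at 10 months. That is a fall of 0.98 with a standard error of 0.05 (1.98-fold higher at 6 months, adjusted p = 3.8e-09), and it was the single gene called when a change of more than 1.5-fold was required. Hspa5, the master chaperone BiP, measured 11.44, 11.53, 11.66 and 11.53 and then 11.13, 10.64, 10.73 and 10.89 (-0.69 ± 0.09, adjusted p = 3.35e-05). Pdia4, another disulfide isomerase, measured 9.93, 9.87, 9.78 and 9.98 and then 9.01, 9.17, 9.08 and 9.31 (-0.74 ± 0.07, adjusted p = 6.14e-07). In all 3 genes every 10-month array was below every 6-month array.

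The remaining members that fell were Manf (-0.61), a secreted survival factor, Pdia6 (-0.51), Xbp1 (-0.45), the transcription factor of the response, Hyou1 (-0.36), Dnajc3 (-0.32), Calr (-0.24) and Sdf2l1 (-0.23). Manf rests on 4 of its 5 probe sets, and the brightest gave 0.04. Pdia3, Dnajb11, Hsp90b1, Edem1, Dnajb9, P4hb, Sel1l, Canx, Syvn1, Ern1 and Herpud1 were not called, with changes from -0.26 to 0.10. Over all 21 genes the mean was 9.89 to 9.98 in the 6-month arrays and 9.56 to 9.72 in the 10-month arrays, with no overlap. From 1 to 4 months 5 members had risen and 1 had fallen. Hspa5 averaged 11.10 at 1 month, 11.66 at 2, 11.54 at 4 and 6, and 10.85 at 10 months, whereas Creld2 was between 8.46 and 8.60 at all ages before 10 months.

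Genes of a neighbouring arm of the stress response were not called lower. Among 20 genes driven by the factor ATF4, 3 rose (Slc7a5 by 0.49 ± 0.07, Ddit4 by 0.27 and Slc3a2 by 0.18) and none fell. That is 15% higher and 0% lower, against 8.56% and 11.7% of all genes. With the brightest probe set 1 rose, and the call of Slc3a2 was lost in 10 of the 24 alternatives. Slc7a5 and Slc3a2 form the large neutral amino acid transporter. In cytosolic heat shock genes, 3 of 21 rose and 5 fell (14.3% and 23.8%, median -0.05). Bag3, a cochaperone of selective autophagy, rose by 0.74 ± 0.16, Dnajb5 by 0.36 and Dnaja1 by 0.33. Chordc1, a partner of HSP90, fell by 1.03 ± 0.17 and Hsph1, the HSP110 nucleotide exchange factor, by 0.59 ± 0.06. Hsph1 measured 9.54, 9.66, 9.60 and 9.72 at 6 months and 9.02, 8.96, 9.06 and 9.13 at 10 months, with all 19 probe sets lower. Hspa4, Ahsa1 and Hsf1 fell by 0.30, 0.26 and 0.24.

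The promoters of 3 of the ER genes that fell are shown because they hold the ER stress element through which ATF6 and XBP1 act, the letters CCAAT and CCACG with 9 bases between them on either strand, in capitals. They are the 250 bases before the start site in RefSeq's GRCm38.p6, all on the plus strand, at chr2:34771840-34772089 (Hspa5), chr15:88819396-88819645 (Creld2) and chr12:17266339-17266588 (Pdia6).
Hspa5: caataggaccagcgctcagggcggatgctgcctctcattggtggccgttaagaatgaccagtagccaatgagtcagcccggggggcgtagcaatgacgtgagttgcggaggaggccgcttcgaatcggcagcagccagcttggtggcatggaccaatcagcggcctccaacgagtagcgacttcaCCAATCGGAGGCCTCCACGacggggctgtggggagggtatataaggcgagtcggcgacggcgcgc
Creld2: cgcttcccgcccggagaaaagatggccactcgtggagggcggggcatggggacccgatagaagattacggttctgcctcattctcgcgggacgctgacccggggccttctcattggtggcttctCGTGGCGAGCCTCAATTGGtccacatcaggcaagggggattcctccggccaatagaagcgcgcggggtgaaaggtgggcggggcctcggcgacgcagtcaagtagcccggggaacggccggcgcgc
Pdia6: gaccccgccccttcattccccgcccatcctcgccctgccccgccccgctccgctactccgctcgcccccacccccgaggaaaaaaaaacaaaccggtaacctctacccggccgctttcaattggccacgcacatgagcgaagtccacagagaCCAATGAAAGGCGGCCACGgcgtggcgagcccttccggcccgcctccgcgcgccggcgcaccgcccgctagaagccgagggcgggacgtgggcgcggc

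The element ends 46 bases before the start in Hspa5, 107 bases before it in Creld2, where it runs on the opposite strand, and 79 bases before it in Pdia6. Of the 8 windows found for the 10 genes that fell, 5 held it (Calr, Creld2, Dnajc3, Hspa5 and Pdia6), which is 62.5%. Among the 11 members not called it was in 3 windows, those of Canx, Hsp90b1 and Syvn1 (27.3%). In the windows of all tested genes the share was 0.130%. The search for this element was added after the fall of these genes had been seen, and since it is a known feature of the list, its presence says nothing about the direction of change.

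Genes of the photoreceptors fell in part. In the list of cone phototransduction 9 of 22 tested members fell and 1 rose (40.9% and 4.55%, median -0.13; 4 fell with the brightest probe set and 6 with the pigment epithelium level as covariate). Cnga3, the main subunit of the cone channel, measured 9.39, 9.29, 9.62 and 9.49 at 6 months and 8.74, 8.60, 8.51 and 8.59 at 10 months (-0.84 ± 0.07, 1.79-fold higher at 6 months, adjusted p = 6.14e-07). Its partner subunit Cngb3 measured 10.87, 10.99, 11.23 and 11.15 and then 10.86, 10.75, 10.50 and 10.75 (-0.34 ± 0.08, adjusted p = 0.00337). Arr3, the cone arrestin, measured 12.11, 12.15, 12.29 and 12.07 and then 11.85, 11.85, 11.77 and 11.78 (-0.34 ± 0.07, adjusted p = 0.00140). The ages were separate for all 3 genes, by a wide gap for Cnga3 and by a narrow one for Cngb3.

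Further falls were Gngt2 (-0.38), a subunit of cone transducin, Grk1 (-0.32), the opsin kinase, Gucy2e (-0.31), a guanylate cyclase, Pde6h (-0.30) and Pde6g (-0.18), inhibitory subunits of the phosphodiesterase, and Opn1mw (-0.22 ± 0.06, adjusted p = 0.0127), the middle-wavelength opsin. Opn1mw measured 11.58, 11.60, 11.73 and 11.55 at 6 months and 11.28, 11.53, 11.50 and 11.26 at 10 months, and it missed the threshold when replicate 3 of 6 months was left out, with the 8 arrays alone, with a 1.5-fold minimum, and with the pigment epithelium or the pigment cell level in the fit. The core of the cascade was not called: Opn1sw (-0.11 ± 0.05, adjusted p = 0.104), Gnat2 (-0.05 ± 0.05) and Pde6c (-0.01 ± 0.06), which encode the opsin, transducin and the catalytic phosphodiesterase subunit. Slc24a1, a sodium-calcium exchanger known from rods, rose by 0.40 ± 0.10. In bulk tissue, fewer cells of a type and less RNA per cell cannot be told apart. Among 13 rod genes 1 rose (Pde6a, 0.25) and 1 fell (Gngt1, -0.57), 7.69% each against 8.56% and 11.7% of all genes. These calls were lost in 15 and 14 of 24 alternatives respectively.

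Among the lists with at least 10 tested members, that of outer segment and connecting cilium genes had the highest share of falls. The list is broader than its name: it also holds Nxnl1, its relative Nxnl2, and the matrix genes Impg1 and Impg2, all among the falls. Of 23 tested members 13 fell and 1 rose (56.5%, median -0.28); 8 fell with the brightest probe set or with the Y-linked level as covariate. Nxnl1, which encodes the rod-derived cone viability factor, measured 8.99, 8.91, 9.02 and 9.06 and then 8.17, 8.52, 8.32 and 8.43 (-0.63 ± 0.07, adjusted p = 4.73e-06). Its relative Nxnl2 measured 8.77, 8.91, 8.92 and 9.00 and then 8.23, 8.28, 8.40 and 8.18 (-0.63 ± 0.07, adjusted p = 2.99e-06). Both were lower in every 10-month mouse, but Nxnl2 had been falling all along, from 9.74 at 1 month through 9.35, 9.05 and 8.90 to 8.27, whereas Nxnl1 stayed between 8.95 and 8.99 until 6 months. Impg1 (-0.61) and Impg2 (-0.39) encode proteoglycans of the matrix around the photoreceptors, and Rp1 (-0.46) and Rp1l1 (-0.48) bind axonemal microtubules. Tmem67, Kif3a, Lca5, Ift140, Tulp1, Prom1 and Abca4 fell by 0.16 to 0.47, and Fscn2, an actin bundler, rose by 0.28. The list had 8 falls and no rise from 1 to 4 months.

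Among the factors that set photoreceptor identity 5 of 15 fell and 1 rose (33.3% and 6.67%; 2 fell with the Y-linked or pigment covariate). Prdm1, which holds photoreceptor precursors back from the bipolar fate, measured 9.21, 9.31, 9.03 and 9.09 and then 8.07, 8.60, 8.46 and 8.75 (-0.69 ± 0.11, adjusted p = 0.000196). Rxrg, a nuclear receptor that represses the short-wavelength opsin, measured 9.25, 9.14, 9.13 and 9.22 and then 8.52, 8.69, 8.67 and 8.73 (-0.53 ± 0.06, adjusted p = 2.78e-06). The ages did not overlap for either. Neurod1, Thrb and Otx2 fell by 0.25, 0.21 and 0.15, Tbx2 rose by 0.37 ± 0.06, and Crx, the factor that drives most photoreceptor genes, was not called (-0.08).

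Further genes that fell came from other lists. Kcnv2, a silent potassium channel subunit of photoreceptors, measured 11.19, 11.23, 11.42 and 11.31 and then 10.24, 10.67, 10.47 and 10.29 (-0.87 ± 0.08, 1.83-fold higher at 6 months, adjusted p = 1.1e-06). Rdh12, which reduces retinal in the inner segment, fell by 0.59 ± 0.08 (adjusted p = 2.8e-05), and Slc16a3, a lactate exporter, by 0.84 ± 0.09 (adjusted p = 2.87e-06). Each of these 3 was lower in all 4 mice of 10 months. At the photoreceptor synapse 3 of 20 ribbon synapse genes fell (15%, against 11.7% of all genes): Cplx4 (-0.53 ± 0.09), a complexin, Egflam (-0.37 ± 0.05), which encodes pikachurin, and Elfn1 (-0.32 ± 0.09). None rose. Egflam was even among the mice, with 11.07 to 11.10 at 6 months and 10.60 to 10.80 at 10 months.

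**Figure D4:**
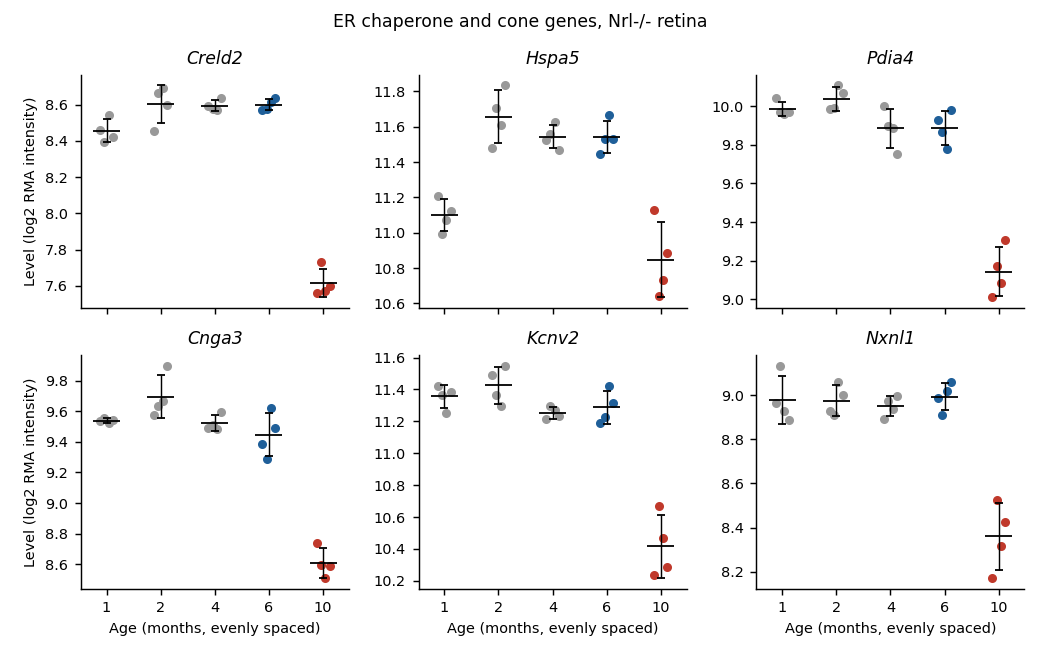
Log2 RMA level of the ER chaperone genes Creld2, Hspa5 and Pdia4 and of the photoreceptor genes Cnga3, Kcnv2 and Nxnl1 in each mouse at 1, 2, 4, 6 (blue) and 10 months (red); ages are evenly spaced, lines are means and bars SD, n = 4, and each panel has its own axis. The 10-month points lie below all 6-month points in every panel, and apart from Hspa5, which averaged 11.10 at 1 month, the younger ages lie close to the 6-month level.

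RNA-binding and splicing genes fell in part. Of 36 tested members 10 fell (27.8% against 11.7% of all genes, median -0.06), and 7 with the brightest probe set or with the Y-linked level as covariate. The 3 that rose make 8.33%, near the 8.56% of all genes, and in several alternatives 1 rose. Srsf10, an SR protein that represses splicing when dephosphorylated, measured 9.32, 9.37, 9.46 and 9.60 at 6 months and 8.73, 8.60, 7.99 and 8.76 at 10 months (-0.92 ± 0.13, 1.89-fold higher at 6 months, adjusted p = 6.02e-05). Srsf5, another SR protein, measured 10.97, 10.76, 10.59 and 10.38 and then 10.00, 9.78, 9.67 and 9.89 (-0.84 ± 0.13, adjusted p = 0.000141). Sfpq, a factor of long introns and paraspeckles, measured 10.84, 10.80, 10.81 and 10.79 and then 10.37, 10.09, 10.09 and 10.17 (-0.63 ± 0.07, adjusted p = 4.01e-06). All were below the 6-month range in each 10-month mouse, and every probe set of the 3 genes was lower (5, 7 and 13).

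Tra2a fell by 0.82 ± 0.07 over 16 probe sets, of which 14 were lower and 2 higher, and its brightest probe set gave 0.36. Such a split within a gene can hold a change of exon use as well as of level, which gene-level values do not separate. Clk1, the kinase that phosphorylates SR proteins, fell by 0.46, Ddx17 by 0.39, Hnrnpm by 0.38, Srpk1 by 0.35, Srsf1 by 0.30 and Hnrnpu by 0.18. Hnrnpc (0.67 ± 0.17, 1 probe set), Srsf2 (0.24) and Hnrnpk (0.22) rose. From 1 to 4 months 16 of the 36 members fell and none rose. Srsf5, which is in both counts, averaged 11.55 at 1 month, 10.45 at 4 and 9.84 at 10 months.

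Cirbp, the cold-inducible RNA-binding protein, which also shapes the amplitude of clock messages, went the other way. It measured 10.42, 10.23, 10.42 and 10.33 at 6 months and 11.23, 11.07, 11.20 and 11.12 at 10 months (0.80 ± 0.06, 1.75-fold, adjusted p = 1.89e-07), with all 7 probe sets higher. All mice of 10 months were alike and above every younger mouse, since the means at 1, 2 and 4 months were 10.40, 10.15 and 10.20. Of the 8 tested genes of the cold-inducible list it was the only member that rose, and Sfpq, Srsf5 and Srsf10 fell. The shares were 12.5% higher and 37.5% lower, against 8.56% and 11.7% of all genes.

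**Figure D5:**
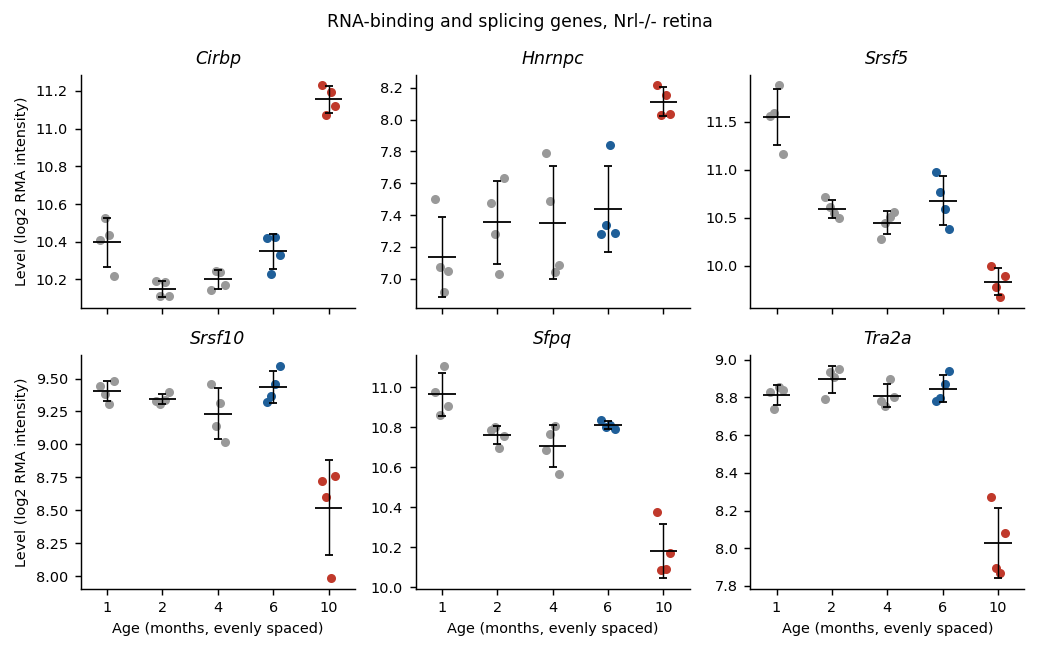
Log2 RMA level of Cirbp, Hnrnpc, Srsf5, Srsf10, Sfpq and Tra2a in each mouse at 1, 2, 4, 6 (blue) and 10 months (red); ages are evenly spaced, lines are means and bars SD, n = 4, and each panel has its own axis. Cirbp and Hnrnpc are above and the other 4 genes below their 6-month points in all mice of 10 months, and Srsf5 starts at 11.55 at 1 month.

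Few immune genes were called. Of 24 microglia and macrophage genes 4 fell and none rose (16.7% against 11.7% of all genes, median -0.08). Of 13 complement genes 1 fell (7.69%), of 19 interferon-induced genes 2 fell (10.5%), and of 16 antigen presentation genes 1 rose (Tap2, 0.26 ± 0.06, 6.25% against 8.56%). The call of Tap2 was lost with the brightest probe set, with the Y-linked level as covariate and without the 2 arrays low in Y-linked genes. The mean of the antigen presentation genes was 7.47 to 7.55 in the 6-month arrays and 7.55 to 7.70 in the 10-month arrays, just without overlap, and 11 of the 16 had a change above 0. Among 15 chemokine and cytokine genes there was no call by limma (1 at an unadjusted p under 0.05). Ctss, a lysosomal protease of microglia, measured 9.10, 9.07, 9.39 and 9.26 and then 9.06, 8.47, 8.73 and 8.93 (-0.40 ± 0.11, adjusted p = 0.0130). P2ry13, a microglial nucleotide receptor, fell by 0.37 ± 0.10, Itgam by 0.33 ± 0.08 and Laptm5 by 0.23 ± 0.08, a call lost in 15 of the 24 alternatives. With the Y-linked level in the fit or without the 2 arrays low in Y-linked genes, 1 microglia gene fell and 1 rose, and 1 fell with the pigment epithelium level in the fit or with the brightest probe set. Stat2, which carries the interferon signal to the nucleus, fell by 0.60 ± 0.06 (8.58 to 8.64 at 6 months, 7.91 to 8.07 at 10 months, adjusted p = 1.1e-06), with all 26 probe sets lower. Its brightest probe set alone did not reach the threshold.

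These groups had been higher after the first month. From 1 to 4 months 8 microglia, 7 complement and 6 interferon-induced genes rose and none fell. C4b, a complement component, averaged 8.56 at 1 month, 9.86 at 2, 9.90 at 4, 9.60 at 6 and 9.37 at 10 months, and its late difference was not called (-0.24 ± 0.12, adjusted p = 0.165). Serping1, the inhibitor of the first complement component, averaged 8.18, 9.02, 9.08, 8.81 and 8.47 at the same ages (late difference -0.35 ± 0.12, adjusted p = 0.0543). Both means at 10 months lay above those of 1 month, with no test made of that difference.

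Genes of inner retinal neurons had few calls each. Of the tested genes of amacrine cells 3 of 22 rose (Sst, Tac1 and Ebf3; 13.6% against 8.56% of all genes), of ganglion cells 3 of 19 (Ebf1, Rbpms and Thy1; 15.8%) and of horizontal cells 2 of 13 (Lhx1 and Ndrg1; 15.4%), with none lower, and of bipolar cells 3 of 19 rose and 3 fell (15.8% each). The mean of the amacrine genes was 8.58 to 8.74 in the 6-month arrays and 8.74 to 8.95 in the 10-month arrays, just without overlap, and 19 of the 22 had a change above 0. The amacrine count was 1 without replicate 1 or replicate 4 of 10 months, with the brightest probe set, and with the pigment epithelium or pigment cell level in the fit. The ganglion count was 0 without replicate 1 or without replicate 2 of 6 months, and the bipolar rises were 0 without replicate 2 of 10 months. With the Y-linked level as covariate, or without the 2 arrays low in Y-linked genes, 0 bipolar genes rose and 1 fell. Sst, the somatostatin of a class of amacrine cells, measured 7.98, 8.09, 7.80 and 7.88 and then 8.19, 8.61, 8.59 and 8.53 (0.54 ± 0.11, adjusted p = 0.00150). Lhx1, a horizontal cell factor, measured 7.40, 7.65, 7.51 and 7.50 and then 7.89, 7.80, 7.90 and 7.85 (0.35 ± 0.07, adjusted p = 0.00115). Cabp5, a calcium-binding protein of bipolar cells, fell from 12.13, 12.21, 12.36 and 12.25 to 11.90, 11.87, 12.03 and 11.80 (-0.34 ± 0.06, adjusted p = 0.000659). The ages were separate for all 3 genes.

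Genes of respiration, the ribosome and the proteasome were rarely called, against 20.3% of all genes. None of 41 genes of oxidative phosphorylation and none of 15 cytosolic ribosome genes was called by limma (3 and 1 had an unadjusted p under 0.05), with medians of -0.03 and -0.03, and 1 of 27 proteasome genes fell (Psmc4, -0.19). In glycolysis and the citrate cycle 6 of 32 fell (18.8% against 11.7%) and 1 rose (Pfkp, 0.24; 3.13%), but 1 fell with the brightest probe set, 2 fell with the Y-linked level as covariate and 3 without replicate 2 of 10 months. Slc16a3 was the largest of them, and Hk2, the photoreceptor hexokinase, fell by 0.29 ± 0.08.

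Lipid and matrix genes rose in part. In cholesterol synthesis and transport 6 of 22 rose and 2 fell (27.3%, median 0.10; 2 rose with the brightest probe set). Insig1, the sterol sensor that holds back SREBP, rose from 10.45, 10.39, 10.67 and 10.36 to 11.05, 10.89, 10.99 and 10.85 (0.48 ± 0.07, adjusted p = 0.000117), and Abca1, the cholesterol exporter, from 9.35, 9.37, 9.44 and 9.36 to 9.72, 9.88, 9.81 and 9.93 (0.45 ± 0.08, adjusted p = 0.000421). Hsd17b7 (0.41), Dhcr7 (0.32), Msmo1 (0.30) and Srebf1 (0.24) rose and Scap (-0.27) and Pmvk (-0.19) fell. Among heparan sulfate genes 7 of 25 rose and 1 fell (28%, median 0.03), and 3 rose with the pigment epithelium or pigment cell level as a covariate. Gpc4, a glypican of the cell surface, measured 7.34, 7.41, 7.18 and 7.14 and then 7.83, 7.69, 7.96 and 8.02 (0.61 ± 0.10, adjusted p = 0.000283). Hs6st2, a heparan sulfate 6-O-sulfotransferase, had a higher mean at every age, from 6.54 at 1 month through 7.59, 8.16 and 8.25 to 8.56 at 10 months, and the late step added 0.30 ± 0.07.

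In the extracellular matrix list 5 of 24 rose and none fell (20.8%, median 0.16). With the pigment epithelium level as covariate 2 rose, and with the brightest probe set 1. Col4a2 and Col4a1, the paired basement membrane collagens, rose by 0.37 ± 0.07 and 0.28 ± 0.06 and were above the 6-month arrays in every 10-month mouse. The call of Col4a1 was lost with the brightest probe set. Col18a1 (0.68 ± 0.21) had the array order of the pigment epithelium genes, with 8.94, 8.01, 8.85 and 8.95 at 10 months against 7.73 to 8.38. Of 19 potassium channel genes 3 rose and 1 fell (Kcnv2), 15.8% and 5.26% against 8.56% and 11.7% of all genes. With the brightest probe set 1 rose. Kcnk1, a background leak channel, measured 10.16 to 10.19 at 6 months and 10.66, 10.43, 10.67 and 10.68 at 10 months (0.44 ± 0.06, adjusted p = 0.000103), and its means at 1, 2 and 4 months were 9.68, 10.02 and 10.20.

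Across all genes, the late step was set beside the early step, since 4 against 1 month uses other arrays. Of the 1013 genes higher at 10 months, 185 had risen from 1 to 4 months (18.3%) and 50 had fallen (4.94%), where 6.90% of all tested genes rose and 8.26% fell. Of the 1387 genes lower at 10 months, 253 had fallen (18.2%) and 40 had risen (2.88%). Counted from the early side, 22.6% of the genes that rose and 25.9% of those that fell in the early step were called in the same direction in the late step. Of all tested genes, 8.56% were called higher and 11.7% lower in the late step. Both comparisons came from the same fit and so share its estimate of each gene's spread. The median level of the genes called higher was 8.30, 8.27, 8.34 and 8.31 at 1, 2, 4 and 6 months and 8.62 at 10 months, and of those called lower 8.78, 8.75, 8.71 and 8.75 and then 8.38.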

How the data were processed

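Gene expression was measured on Affymetrix exon arrays, 1 array per mouse. The table the authors deposited holds log2 intensities of exon probe sets, made with RMA per the submitters' processing notes; its version is not given in the sources used here. RMA gives all arrays a common distribution, so a shift of all genes would not be seen. Per the labels, ribosomal RNA was reduced before labelling.

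Of 194293 probe sets, 179496 carried 1 gene symbol in the platform's table, 1328 several (left out) and 13469 none there. Symbols were updated through RefSeq's GRCm38.p6 table for 2039 names, and 15744 of 15781 names are current there. Probe sets were summarised per gene by median polish (median of 9 probe sets, 802 genes with 1). After the lowest 25% by mean level were left out (log2 under 5.61), ages were compared with limma 3.58.1 in R 4.3.3 (lmFit, eBayes, all 20 arrays, 1 mean per age, 15 residual degrees of freedom, two-sided, Benjamini-Hochberg, threshold 0.05). With 4 arrays per age, their number limits the precision. In simulated data, 44.8%, 85.1% and 100% of the genes changed by 0.3, 0.6 and 1.2 on the log2 scale were called. Of 11636 unchanged genes 6 were called. The simulated noise was independent between arrays, with 1 spread per gene at all ages, and few genes were changed (67, 67 and 66). In the real data 20.3% of genes were called and the 10-month arrays differed in whole groups of genes. The simulated shares therefore need not hold for them.

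The members and the 44 gene lists were chosen with earlier results of these data known. The rule for named genes took, from the called genes with separate arrays, the 15 that rose most and the 15 that fell most (predicted genes and olfactory or vomeronasal receptors skipped), from each list at most 4 members by size of change, called ones first, and a fixed set (Arr3, Eif2s3y, Gfap, Gnat2, Kdm5d, Nr2e3, Nrl, Opn1mw, Opn1sw, Pde6c, Rgr, Rpe65 and Ttr). Other members of the lists, and Gpx3, were named after their values had been seen. The alternatives were other summaries of probe sets (mean, brightest), other filters (none, 50%), median centring, quantile normalization, trend and robust eBayes, array weights, the 8 arrays alone, a replicate block, a 1.5-fold minimum, leaving out each array, the Y-linked and pigment epithelium levels as covariates, and leaving out arrays or genes on those grounds. The pigment cell covariate was added after seeing the data. Figures were drawn with matplotlib 3.10.9.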

Additional observations from a re-analysis of the deposited data

Results flagged for a closer look

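In each gene named by rule, the array farthest from the rest of its age was compared with the spread of the others. Of 380 groups of 4 arrays, 18 had an array that stood apart by Dixon's criterion at the 95% level, where chance alone flags about 5% of groups.

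Replicate 2 of 10 months stood apart in 6 genes, below the other 3 arrays in each: Penk at 7.96 (others 10.95 to 11.07), Slc6a13 at 6.64 (others 7.73 to 7.84), Sod3 at 6.26, Col18a1 at 8.01, Kcnk1 at 10.43 and Ifit1 at 5.14. The first 4 have the array order of the pigment epithelium genes described above. Replicate 3 of 6 months stood apart in 5 genes, below the rest in Susd3 (5.69), Elfn1 (9.09) and Cxcl1 (5.48) and above the rest in Hnrnpc (7.84) and Psmc4 (10.00). Without it the call of Psmc4 was lost, while those of Hnrnpc and Elfn1 were kept.

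The other arrays stood apart in fewer genes. Replicate 1 of 10 months was high in Trpm1 (9.61, others 9.14 to 9.18), the cation channel of ON bipolar cells, and in Rbp4 (6.20). Replicate 4 of 10 months was low in Thy1 (10.76) and Grik5 (9.35), and replicate 3 of 10 months was high in Crabp1 (9.33). Replicate 2 of 6 months was high in the lens crystallin Crygs (7.28, others 5.41 to 5.70). Replicate 4 of 6 months was low in the X-linked gene Kdm6a (8.14). The cause of these values was not tested.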

How the results depend on the processing

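The count of 2400 called genes (1013 higher, 1387 lower) stayed within 1.5 times under all alternatives but 3: with the brightest probe set 988 (372 and 616), with a required change of more than 1.5-fold 1 (0 and 1), and with the pigment epithelium level as covariate 1512 (583 and 929). At an unadjusted p under 0.05 there were 3954 genes. Leaving out single arrays gave 1849 to 2303 calls (722 to 933 higher and 1127 to 1388 lower), and the 8 arrays alone 1853. The replicate numbers do not pair the mice: the deviations of arrays with the same number correlated at -0.23, -0.159, -0.349 and -0.0357, and the fit with the replicate block called 2105. Apart from the 1.5-fold minimum, which left Creld2 alone, 58 of the 135 called genes named by rule lost their call in none of the other 23 alternatives. Another 35 lost it in 1 to 3 and 42 in 4 or more. The brightest probe set lost 56. A gene that an alternative did not test was not counted as lost. With the lowest 50% left out 105 of the 135 were tested, and with the pigment epithelium genes left out 131. With the brightest probe set some were missing too. With the 1.5-fold minimum counted, the least stable calls were those of Bcl2l1, lost in 16 of 24 alternatives, of Grik5, Laptm5, Lhx3, Pde6a, Plvap and Sulf1 (15), of Gngt1, Hcn2, Prdx6 and Thy1 (14), of Slc2a1 (13), of Lrat and Sod3 (12), of Col18a1 (11), and of Eif2s3y, Fh1, Slc3a2 and Tac1 (10). Directions turned for the genes that follow. Of these, Cep97, Manf, Tra2a, Drd2, Pdgfrb and Eif2s3y were among the called genes, and the others were not called. With the brightest probe set Cep97 was 0.14, Manf 0.041, Tra2a 0.36, Drd2 0.19, Pdgfrb 0.12, Crygs 0.011, Crybb2 0.21 and Gfap 0.10. With the Y-linked level as covariate, and without the arrays low in it, Cox7a2 was 0.35 and 0.27, Drd4 -0.080 and -0.012, Ifit1 0.15 and 0.035, Ndufs4 0.12 and 0.10, Pde6c 0.057 and 0.046, Pou4f3 -0.13 and -0.060, and Slc4a1 -0.15 and -0.12, and Eif2s3y was 0.011 with the covariate. Nrl was -0.044 with the mean of the probe sets, -0.014 with the pigment epithelium covariate and -0.063 with quantile normalization; with that covariate Rgr was -0.016 and Ttr -0.21. Pde6c was 0.0019 with array weights, 0.0015 with the pigment cell covariate, 0.0078 with quantile normalization and from -0.052 to 0.024 when single arrays were left out, and Slc4a1 was -0.0070 with quantile normalization. Leaving out single arrays gave -0.019 to 0.16 for Slc4a1, -0.56 to 0.090 for Cox7a2 and -0.40 to 0.063 for Crybb2. The covariates and the left-out arrays follow the levels they are named for; otherwise the cause was not tested. The 4 arrays per age limit the calls of small changes.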

Other observations

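The remaining lists are set beside the shares of all genes, 8.56% higher and 11.7% lower. Of 29 antioxidant and glutathione genes 4 rose and none fell (13.8%). They were Sod3, Hmox1 (0.37 ± 0.11), which degrades heme, Srxn1 (0.26 ± 0.06) and Prdx6 (0.22 ± 0.07). The calls of Sod3, Hmox1 and Prdx6 were lost in 12, 7 and 14 of 24 alternatives. Sod3 had the array order of the pigment epithelium genes. None rose with the brightest probe set, 1 without replicate 3 of 10 months and 2 with either pigment covariate. Srxn1, which repairs oxidised peroxiredoxins, measured 9.12, 9.18, 9.29 and 9.18 at 6 months and 9.58, 9.49, 9.43 and 9.31 at 10 months. Of 21 cell death genes 3 rose and 2 fell (14.3% and 9.52%). Apaf1, the scaffold of the apoptosome, measured 7.31, 7.25, 7.36 and 7.32 and then 6.81, 6.91, 6.57 and 6.71 (-0.56 ± 0.06, adjusted p = 7.01e-06), and Parp1, a sensor of DNA breaks, measured 8.67, 8.83, 8.80 and 8.90 and then 8.16, 8.34, 8.52 and 8.46 (-0.43 ± 0.07, adjusted p = 0.000201). The ages did not overlap for either. Bcl2l11, which encodes the death promoter BIM, rose by 0.33 ± 0.07, and Bcl2l1 by 0.23 ± 0.08, a call lost in 16 of 24 alternatives.

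Among 30 transmitter receptor genes 1 rose and 2 fell (3.33% and 6.67%). Chrm2, a muscarinic acetylcholine receptor, measured 9.33, 9.39, 9.03 and 9.17 and then 8.83, 8.90, 8.72 and 8.79 (-0.42 ± 0.09, 1 probe set), lower in all mice of 10 months. Of 6 melatonin and dopamine genes 1 fell (16.7%), the dopamine receptor Drd2 (-0.22 ± 0.06). Its brightest probe set gave 0.19, however, and the call was lost in 9 of 24 alternatives. Aanat, the enzyme that sets the rhythm of melatonin, was 0.36 ± 0.13 (adjusted p = 0.0502). Of 26 vessel wall genes 1 rose and 2 fell (3.85% and 7.69%), and of 9 retinoid genes 2 rose (Rbp4 and Crabp1) and 2 fell (Rdh12 and Abca4), 22.2% each. Of the tested genes of other eye tissues, 0 of 10 lens crystallin genes and 0 of 2 red blood cell genes were called by limma. In the list of cornea, ciliary body, iris and muscle 1 of 8 genes rose (Acta1, 0.30 ± 0.08), which is 12.5%. None of these lens and red blood cell genes had an unadjusted p under 0.05. The lens crystallin Cryaa measured 7.20, 9.22, 5.75 and 6.96 at 6 months and 6.21 to 6.88 at 10 months.

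Among 5 X-linked genes that escape silencing 2 rose (40% against 8.56%), Eif2s3x and Ddx3x. Ddx3x, an RNA helicase, measured 11.67, 11.72, 11.92 and 11.75 and then 12.18, 12.15, 12.19 and 12.16 (0.40 ± 0.05, adjusted p = 2.05e-05). It was equally high in the 10-month arrays that were low and in those that were high in Y-linked genes, unlike Eif2s3x and Kdm6a, which were highest in replicates 2 and 3. In the 4 arrays of 2 months, all low in Y-linked genes, Ddx3x measured 11.99 to 12.13. In the arrays of 1 and 4 months, all high in them, it measured 11.60 to 11.64 and 11.69 to 11.78. The cause was not tested.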
